A study of Mus musculus with 4 samples.

Results

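The Hox genes of the mouse were described by cluster (HoxA, HoxB, HoxC and HoxD) and by paralog group, the number that ranks a gene within its cluster. Members were taken by name: each array feature whose only annotated gene symbol is Hox followed by a cluster letter and a number. This gave 37 genes with 57 features, of 19087 named genes and 45220 features in all: 10 HoxA, 10 HoxB, 8 HoxC and 9 HoxD genes. Antisense and opposite-strand transcripts were left out, as was 1 feature annotated to both Hoxb3os and Hoxb2. A further member of the list, Hoxc11, matched no feature in the annotation and is not analysed here.

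Transcripts were measured on 1-colour arrays in E14 cells, a mouse embryonic stem (ES) cell line. The cells carried 1 of 4 plasmids, brought in by lipofection: the empty vector pSuper, pSuper with a luciferase hairpin, or pSuper with Mtf2 hairpin 1 or hairpin 3. All 4 cultures had been transfected and kept for 2 days in puromycin (1 mg/ml as the labels state it), and no untransfected cells are among the groups compared. The empty vector and the luciferase hairpin made up the control arm, and both Mtf2 hairpins the Mtf2 RNAi arm. Each plasmid has 1 array, so a p-value here reflects only how far these arrays differ, plasmid differences included, and that spread may be technical.

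Hox proteins are homeodomain transcription factors that give the embryo's tissues their position along the head-to-tail axis. Low paralog numbers act in the hindbrain and neck, middle numbers in the trunk, and high numbers in the lower spine, limbs, tail and genital tract. In mouse ES cells the clusters are classic targets of Polycomb repressive complex 2 (PRC2), which places the silencing mark H3K27me3, and they are opened in order as cells differentiate. Mtf2 is an accessory subunit of PRC2 that binds DNA rich in unmethylated CG dinucleotides.

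The bases before the start of 4 Hox genes are printed here, because CG-rich DNA is what Mtf2 binds and because these genes carried the largest differences among Hox genes with arms that did not overlap and with exactly 1 promoter in the RefSeq table. They were therefore chosen by the differences given further on. Each run holds the 250 bases before the start, 5′ to 3′ on the strand of the gene, from RefSeq on GRCm38.p6. Capitals mark each CG dinucleotide, which reads the same on both strands.
Hoxd9 (chr2:74697513-74697762, plus strand): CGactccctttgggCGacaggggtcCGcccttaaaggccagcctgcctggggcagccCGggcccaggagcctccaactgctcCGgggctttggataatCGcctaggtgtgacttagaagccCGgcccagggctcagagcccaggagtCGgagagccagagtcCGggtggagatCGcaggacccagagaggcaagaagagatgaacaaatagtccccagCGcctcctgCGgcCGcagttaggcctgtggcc
Hoxd13 (chr2:74667975-74668224, plus strand): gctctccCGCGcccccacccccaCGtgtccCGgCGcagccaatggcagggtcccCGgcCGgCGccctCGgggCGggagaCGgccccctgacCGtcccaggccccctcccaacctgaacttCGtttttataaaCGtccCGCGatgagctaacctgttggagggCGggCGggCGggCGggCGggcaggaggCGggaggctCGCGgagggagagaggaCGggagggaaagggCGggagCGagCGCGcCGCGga
Hoxa7 (chr6:52218574-52218823, minus strand): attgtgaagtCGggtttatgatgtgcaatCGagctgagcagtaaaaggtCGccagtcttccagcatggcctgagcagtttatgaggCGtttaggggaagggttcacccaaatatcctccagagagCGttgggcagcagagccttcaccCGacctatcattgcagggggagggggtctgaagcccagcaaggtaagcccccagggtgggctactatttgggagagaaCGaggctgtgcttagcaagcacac
Hoxd8 (chr2:74704365-74704614, plus strand): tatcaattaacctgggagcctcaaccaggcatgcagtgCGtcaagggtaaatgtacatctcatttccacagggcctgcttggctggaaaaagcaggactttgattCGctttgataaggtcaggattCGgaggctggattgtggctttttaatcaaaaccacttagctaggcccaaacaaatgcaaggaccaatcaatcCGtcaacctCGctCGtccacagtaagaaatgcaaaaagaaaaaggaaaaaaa

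The printed runs held 13 CG in Hoxd9, 31 in Hoxd13, 7 in Hoxa7 and 6 in Hoxd8. Over the 24 promoters that the table gives for 22 Hox genes, the number ran from 2 to 35 with a median of 12.5, against a median of 6 over 32851 promoters of 27025 genes. At least 10 CG stood in 15 of 24 Hox promoters and in 37.8% of all promoters. At least 20 CG stood in 8 of 24 Hox promoters and in 17.9% of all, and 92.1% of all promoters held at least 1. The median share of G and C was 58.6% in the Hox promoters and 52.4% in all. The letters are a description and do not show where a protein was bound in these cells.

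**Figure D1:**
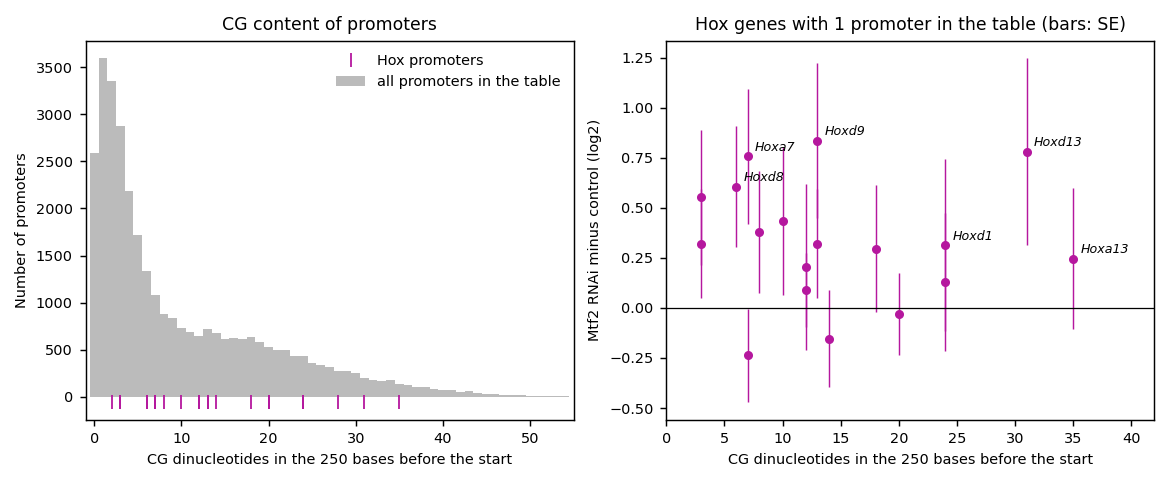
Left, number of promoters (vertical axis) by CG dinucleotides in the 250 bases before the start (horizontal axis), with grey bars for the 32851 promoters of the table and ticks for the 24 Hox promoters, whose median is 12.5 against 6. Right, log2 difference, Mtf2 RNAi minus control, against that number for Hox genes with 1 promoter in the table and a tested feature, with bars for the standard error (SE); Hoxd13 with 31 CG lies at 0.78 and Hoxa7 with 7 CG at 0.76.

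Values are scaled intensities in arbitrary units: each array was brought to a common 75th percentile of 22.98 units. Anything under 1 unit was raised to that floor before log2 was taken. Features at that floor throughout (10118) were dropped, which left 35102 for the limma test. The Mtf2 feature that reads brightest did not show the knockdown, with 174.8 and 737.2 units in the control arm and 501.1 and 335.0 in the Mtf2 RNAi arm. The other 3 Mtf2 features read lower on both hairpins than on both controls, by -1.08 (SE 0.21), -1.02 (SE 0.32) and -0.78 (SE 0.22) log2 units, and none of the 4 passed the test. The empty-vector array stood apart: its log2 values correlated with those of the other arrays at r = 0.945 to 0.949, against 0.976 to 0.979 among the others. It also held 1681 positions whose neighbourhood read low or high, against 8, 18 and 23 for luciferase, hairpin 1 and hairpin 3. Hoxc6 and 1 feature of Hoxb9 lie at such a position.

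The cells read as ES cells on every array: all 16 ES-cell markers with a feature lay above the floor, with a summed level of 13952 to 16745 units. Between the arms 9 of the 16 read higher and 7 lower, 2 and 3 of them separate, with a median of 0.09 log2 units. The separate ones were Klf4 (1.02, SE 0.40) and Nanog (0.86, SE 0.39), which read higher, and Rex2 (-0.68, SE 0.35), Utf1 (-0.40, SE 0.29) and Esrrb (-0.29, SE 0.24), which read lower; none passed the test. Sums for other cell types, in the order empty vector, luciferase, hairpin 1, hairpin 3, were 50.3, 566.3, 479.7 and 660.2 units for primitive streak and mesoderm (15 of 15 markers tested, 3 separate and higher, 1 separate and lower). They were 390.8, 257.1, 232.3 and 250.1 units for neuroectoderm (12 of 13), 67.4, 228.9, 171.8 and 151.8 for endoderm (12 of 13), 630.8, 617.4, 314.5 and 581.4 for trophoblast (10 of 10), and 295.8, 272.1, 239.4 and 246.9 for fibroblasts (11 of 12). The low empty-vector sums rest on Tcf15 (0.345 against 398.0 to 606.0 units on the other arrays) and Lamb1 (0.115 against 70.6 to 153.9 units). Fap, Dcx and Ttr were at the floor on all arrays, and 10 of 11 fibroblast markers read lower in the Mtf2 RNAi arm (against 50.8% of all genes tested), 6 of them with separate arms (against 18.3%), with a median of -0.26 log2 units. Separate and higher against separate and lower arms numbered 1 and 2 in neuroectoderm, 1 and 3 in endoderm and 1 and 1 in trophoblast markers. For all marker counts, the shares over all genes tested were 15.1% separate and higher and 18.3% separate and lower. The part of other cell types in the Hox readings was not tested, and in a bulk sample fewer cells of a type and less RNA per cell cannot be told apart.

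Hox transcripts read low in all 4 cultures. No Hox feature reached the 75th percentile of its array on any array, and the highest percentile a Hox reading took was 74.1. Of the 37 genes, 6 were at the floor everywhere and have no difference: Hoxa2, a hindbrain factor, and Hoxa5, Hoxb5, Hoxc8, Hoxc10 and Hoxd11, which act from the neck to the limbs. Another 12 were at the floor on 1 to 3 arrays, and 19 lay above it on all 4. Only 12 Hox genes had a mean above that of the median feature, 3.08 units, and 7 passed 10 units on at least 1 array. Intensities of different probes are not comparable as amounts of RNA, so genes are not ranked by level here.

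**Figure D2:**
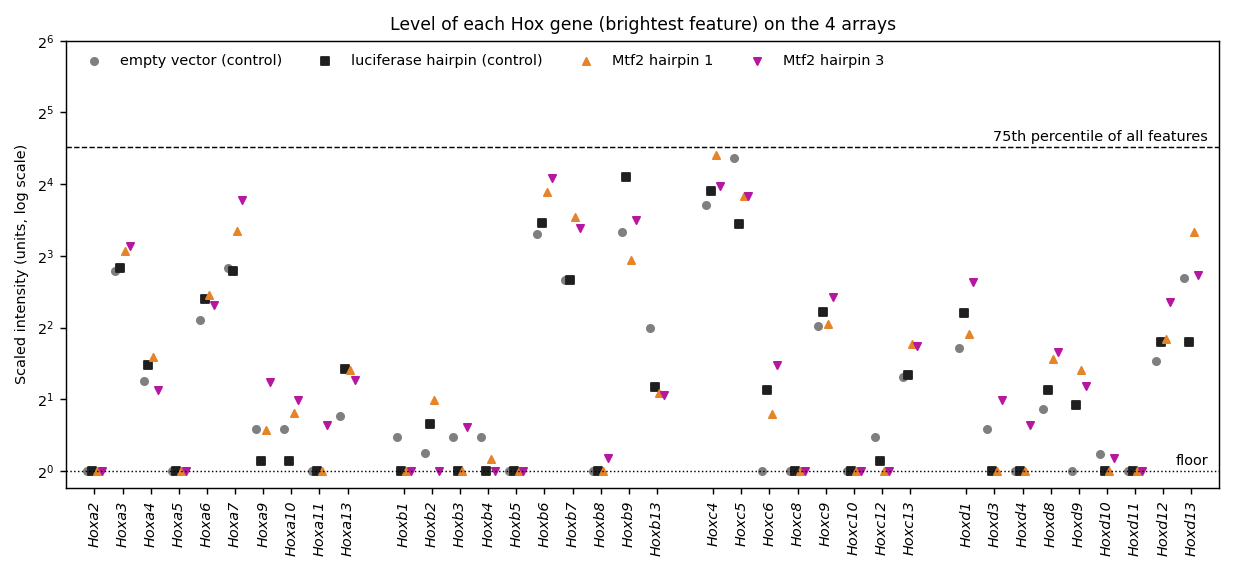
Scaled intensity in arbitrary units (log axis) of the brightest feature of each of 37 Hox genes, ordered by cluster, on the empty-vector, luciferase, hairpin 1 and hairpin 3 arrays, with values under 1 drawn at the floor. All points lie under the common 75th percentile of 22.98 units, and 6 genes sit at the floor on every array.

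No Hox feature passed the test between the arms. Across all 35102 features limma with Benjamini-Hochberg adjustment called 0 at an adjusted p of 0.05 (0%), with a smallest adjusted p of 0.868, and the 37 Hox features tested had adjusted p from 0.868 to 0.997. At an unadjusted p under 0.05 stood 1467 features (4.18%), 568 higher and 899 lower, and among them 1 Hox feature, that of Hoxb7. What follows on single genes therefore describes readings and not calls.

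Over the 31 Hox genes above the floor on at least 1 array, 23 read higher in the Mtf2 RNAi arm (74.2%, against 49.2% of all 16764 genes tested) and 8 read lower (against 50.8%). The median difference was 0.30 log2 units, against -0.01 over all genes, and 0.13 with the 6 genes at the floor entered as 0. Both hairpins lay above both controls in 11 Hox genes (35.5%, against 15.1% of all genes) and below both in 2 (6.45%, against 18.3%). Of these 31 genes, Hoxa11, Hoxb8 and Hoxd4 entered only through the hairpin 3 array, and Hoxb1 and Hoxc12 only through control arrays. Without these 5, 20 read higher and 6 lower, with a median of 0.30, and 11 were separate and higher against 1 separate and lower. Each of these 5 could take only 1 sign, and the counts and medians by cluster and paralog below keep them. The list was chosen with earlier results of these data known, so these shares are a description and carry no test.

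Among the 12 Hox genes above the median feature level, 10 read higher, and 7 (58.3%) had separate and higher arms, against 16.5% of the 12365 genes above that level. None of the 12 was separate and lower. Among the 19 dimmer Hox genes tested, 13 read higher and 4 (21.1%) were separate and higher, against 11.0% of 4399 dimmer genes.

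**Figure D3:**
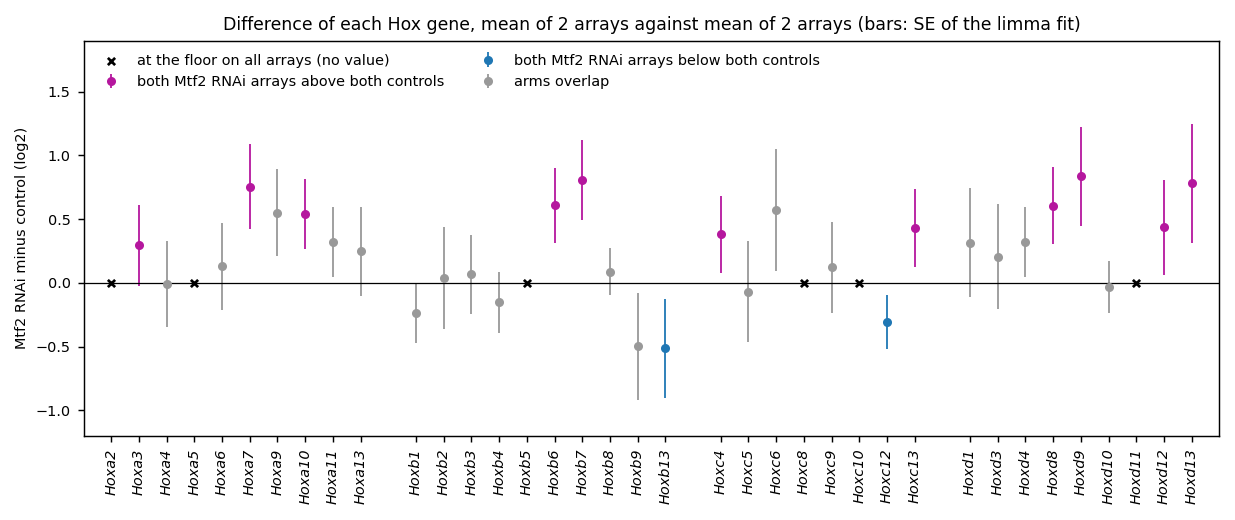
Log2 difference, Mtf2 RNAi minus control, of each Hox gene by its brightest feature, with bars for the SE of the limma fit, coloured by whether the arms were separate, and crosses at 0 for the 6 genes at the floor on all arrays. Of 31 genes with a value, 23 lie above 0, and none passed the test.

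In HoxA, on mouse chromosome 6, 7 of 8 tested genes read higher and 3 had separate arms, for a median difference of 0.31 log2 units. Hoxa11, counted among the higher genes, passed the filter through hairpin 3 alone and could only read higher. Hoxa7, which patterns the trunk vertebrae, read 7.14 and 6.90 units in the empty-vector and luciferase cultures, against 10.2 for hairpin 1 and 13.8 for hairpin 3. The arms did not overlap, and the difference was 0.76 log2 units (SE 0.34, n = 2 arrays an arm, limma adjusted p = 0.868), or 1.69-fold. Hoxa3, needed for the thymus and parathyroid, read 6.90 and 7.15 units in the control arm and 8.42 and 8.82 in the Mtf2 RNAi arm. That is a small step of 0.30 log2 units (SE 0.32), by its brightest feature. A dimmer feature of Hoxa3 (1.70, 0.709, 1.55 and 1.56 units in the order of the arrays) overlapped, and another was at the floor on all arrays. Hoxa10, which acts in the lumbar spine and uterus, read 1.49 and 1.10 units in the control arm against 1.75 and 1.99. Its arms were separate too, with a difference of 0.54 (SE 0.27), but all 4 readings lay close to the floor, and without luciferase it was 0.32.

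The other HoxA genes gave no separate arms by their brightest feature. Hoxa9, a factor of blood stem cells, read 1.49 and 1.10 units in the control arm and 1.49 and 2.36 in the Mtf2 RNAi arm, so only hairpin 3 stood above both controls. Hoxa6 (0.13, SE 0.34) and Hoxa13 (0.25, SE 0.35), the latter needed for digits and the genital tract, differed by less than their error. Hoxa11, which patterns the forearm and uterus, was above the floor on the hairpin 3 array alone, at 1.56 units. Hoxa4, a factor of neck vertebrae, read 2.39 and 2.78 units in the control arm and 3.01 and 2.18 in the Mtf2 RNAi arm, a difference of -0.01 (SE 0.34). Its dimmer feature read 1.18 and 1.34 units against 1.79 and 1.85, separate and higher by 0.53 (SE 0.23). The 2 features of Hoxa4 therefore gave different pictures.

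HoxB, on mouse chromosome 11, was mixed: 5 of 9 tested genes read higher and 4 lower, and the median was 0.04 log2 units. Of its middle genes, Hoxb7 and Hoxb6 had separate and higher arms, Hoxb8 was above the floor with hairpin 3 alone, and Hoxb5 was at the floor. Hoxb7, a trunk factor, read 6.31 units on both control arrays, 11.6 with hairpin 1 and 10.5 with hairpin 3. Its difference of 0.81 log2 units (SE 0.31), or 1.75-fold, had an unadjusted limma p of 0.0492, the smallest among Hox features, and an adjusted p of 0.868. With 1 array left out it ran from 0.73 to 0.88. Hoxb6, its neighbour in the cluster and also a trunk factor, read 9.86 and 11 units in the control arm and 14.8 and 17 in the Mtf2 RNAi arm. The arms were again separate, by 0.61 log2 units (SE 0.29) or 1.53-fold, whereas a dimmer feature of Hoxb6 (1.61, 0.835, 2.41 and 0.874 units in the order of the arrays) overlapped.

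Both HoxB genes of paralogs 9-13 read lower. Hoxb13, a factor of the tail and prostate, read 3.99 units with the empty vector, 2.26 with luciferase, 2.13 with hairpin 1 and 2.09 with hairpin 3. The arms were separate by -0.51 log2 units (SE 0.39), but the luciferase array lay next to the Mtf2 RNAi arrays and the empty vector stood apart: without it the difference was -0.10. Hoxb9, which acts in the thoracic skeleton, read 10.1 and 17.2 units in the control arm and 7.68 and 11.3 in the Mtf2 RNAi arm, which overlapped (-0.50, SE 0.42). Its dimmer feature, at a position where the empty-vector array reads poorly, gave 4.399 and 3.28 units against 2.58 and 2.36, separate and lower by -0.62 (SE 0.34). The head end of the cluster lay around the floor, and Hoxb2 (0.04), Hoxb3 (0.07), Hoxb4 (-0.15) and Hoxb8 (0.09) differed by less than their SE.

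Hoxb1, the hindbrain segment gene that retinoic acid turns on early, is covered by 10 features for 1 transcript accession. Of these, 9 were at the floor on all 4 arrays, and the readings ran from -0.377 to 1.39 units. The medians over the 10 features were 0.590 units for the empty vector, 0.359 for luciferase, 0.427 for hairpin 1 and 0.353 for hairpin 3. No array lifted Hoxb1 out of the background, and the -0.24 (SE 0.23) of its brightest feature rests on a single reading of 1.39 units on the empty-vector array.

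**Figure D4:**
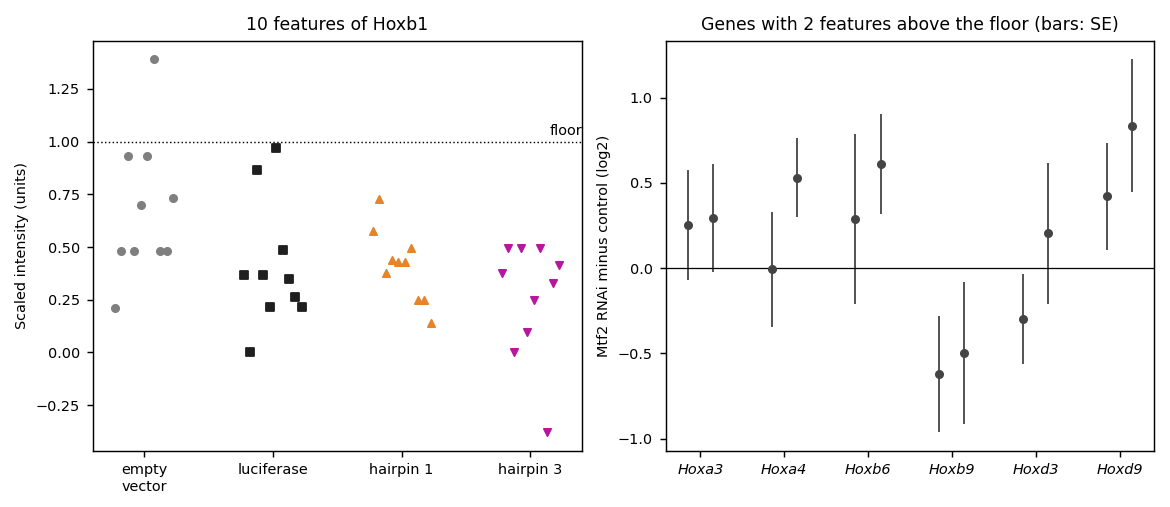
Left, scaled intensity (units) of the 10 features of Hoxb1 on each array, with the floor of 1 unit dotted; only 1 reading, 1.39 units with the empty vector, lies above it. Right, log2 difference, Mtf2 RNAi minus control, of each tested feature of the Hox genes with 2 such features, with bars for the SE; the features of Hoxa4 and of Hoxd3 take opposite signs.

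In HoxC, on mouse chromosome 15, 4 of 6 tested genes read higher and 2 lower, with a median of 0.25 log2 units. Hoxc4, at the cluster's front end, read 13.1 and 15 units in the control arm and 21.2 and 15.8 in the Mtf2 RNAi arm. The arms were separate by 0.38 (SE 0.30) or 1.30-fold, but hairpin 3 lay only just above luciferase, and without hairpin 1 the difference was 0.17. Hoxc5 beside it, which helps set neck motor neurons, read 20.6 units with the empty vector, 10.9 with luciferase and 14.3 with each hairpin. Here the controls lay on both sides of the hairpins, and the difference was -0.07 (SE 0.39).

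Hoxc13, a factor of hair and nails, read 2.49 and 2.52 units in the control arm and 3.41 and 3.36 in the Mtf2 RNAi arm, a difference of 0.43 (SE 0.31). Its 2 readings within each arm were nearly equal and the arms were separate. Hoxc12, next to it, read 1.39 and 1.10 units in the control arm, and both hairpins were under the floor (0.875 and 0.665), which gave -0.30 (SE 0.21), a value set by the floor. Hoxc6, which specifies motor neurons of the forelimb level, read 0.261 units with the empty vector, 2.19 with luciferase, 1.74 with hairpin 1 and 2.78 with hairpin 3. The empty-vector reading comes from a position with a local defect and the 0.57 (SE 0.48) of this gene rests on it: without that array the difference was 0.0092. Hoxc9, which sets thoracic motor neurons, differed by 0.12 (SE 0.36) with overlapping arms.

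HoxD, on mouse chromosome 2, had the highest median of the clusters in these arrays, 0.38 log2 units, with 7 of 8 tested genes higher and 4 of them separate. Without the hairpin 3 array that median was 0.089. Hoxd4, counted among the higher genes, passed the filter through that array alone and could only read higher. Hoxd9, a factor of the lumbar spine and limb, read 0.784 and 1.89 units in the control arm and 2.65 and 2.27 in the Mtf2 RNAi arm. The arms were separate by 0.84 (SE 0.39), or 1.79-fold, with the empty vector raised to the floor, so the size depends on it. The difference was 0.38 without the empty vector and 1.30 without luciferase, and the other feature of Hoxd9 (1.15, 0.709, 1.10 and 1.87 units) overlapped. Hoxd8, a trunk factor, read 1.83 and 2.19 units against 2.94 and 3.15. Its arms were separate by 0.61 (SE 0.30), or 1.52-fold, and each hairpin exceeded each control by more than the arms varied within themselves.

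The last HoxD genes, Hoxd12 and Hoxd13, act in the digits. Hoxd13 read 6.47 units with the empty vector, 3.49 with luciferase, 10 with hairpin 1 and 6.62 with hairpin 3. The arms were separate by 0.78 (SE 0.47), or 1.72-fold, although hairpin 3 lay only just above the empty vector. The difference was 0.33 without luciferase, 0.48 without hairpin 1 and 1.23 without the empty vector, and another feature of Hoxd13 was at the floor on all arrays. Hoxd12 read 2.90 and 3.47 units in the control arm and 3.59 and 5.13 in the Mtf2 RNAi arm, 0.44 (SE 0.37), again with 1 hairpin close to a control, and 0.18 without hairpin 3. Hoxd1, known in mouse for pain-sensing neurons, read 3.29 and 4.62 units against 3.77 and 6.25, which overlapped (0.31, SE 0.43). Hoxd4 was above the floor with hairpin 3 alone, at 1.56 units, and Hoxd10 differed by -0.03 (SE 0.20). Hoxd3, a factor of the upper neck, gave 0.21 (SE 0.41) by 1 feature and -0.30 (SE 0.26) by the other, both near the floor.

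Across the clusters, the middle paralogs had the highest median. Paralogs 1-4 had a median of 0.14 log2 units with 7 of 10 tested genes higher, paralogs 5-8 had 0.59 with 7 of 8 higher, and paralogs 9-13 had 0.32 with 9 of 13 higher. With genes at the floor entered as 0 the order changed, to 0.069, 0.13 and 0.25. The 0.32 of paralogs 9-13 is the value of Hoxa11, and paralogs 5-8 count Hoxb8 as higher, both above the floor with hairpin 3 alone. Hoxd4 and Hoxb1 in paralogs 1-4 and Hoxc12 in paralogs 9-13 also entered through 1 arm only. Separate and higher arms were found in 2, 4 and 5 genes, and separate and lower arms in 0, 0 and 2. Paralog group 7 was the only number with more than 1 tested gene in which each was separate and higher, Hoxa7 and Hoxb7 (median 0.78). All 3 genes of group 6 read higher, by 0.13, 0.61 and 0.57, of which only Hoxb6 was separate. Group 13 was split, with Hoxc13 and Hoxd13 separate and higher, Hoxa13 overlapping and Hoxb13 separate and lower. Group 9 was split as well, with Hoxa9, Hoxc9 and Hoxd9 higher and Hoxb9 lower. Whether these groups differ from each other was not tested.

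The group medians depended on single arrays. Without hairpin 3 the median of all Hox genes was 0.20, that of HoxD was 0.09, HoxC 0.09, HoxA 0.24, paralogs 5-8 0.37, paralogs 9-13 0.18 and paralogs 1-4 -0.03. Without hairpin 1 they were 0.38 for all Hox genes, 0.67 for HoxD, 0.48 for HoxA and 0.25 for paralogs 1-4. HoxB changed sign with the array left out, at -0.22 without hairpin 1, -0.07 without hairpin 3, -0.11 without luciferase and 0.08 without the empty vector. HoxC was 0.15 without the empty vector. Leaving out hairpin 1 gave 20 Hox genes with separate and higher arms and 4 with separate and lower, and leaving out luciferase gave 16 and 6, since fewer arrays separate more easily. The shares of all genes in these fits were not computed, so these counts have no background.

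Each hairpin was also set against each control array, and these pairs share arrays. The median over the 31 Hox genes was 0.23 for hairpin 1 against the empty vector (18 higher) and 0.06 against luciferase (17 higher). It was 0.41 for hairpin 3 against the empty vector (23 higher) and 0.35 against luciferase (22 higher). The medians over all genes were -0.03, 0.00, -0.06 and 0.00. By these medians hairpin 3 read further above both controls than hairpin 1 did. In HoxD the 4 medians were 0.25, 0.02, 0.71 and 0.55 in the same order, and in HoxA 0.31, 0.18, 0.46 and 0.47. In HoxB they were -0.31, 0.00, 0.14 and 0.00, and in HoxC 0.24, 0.13, 0.34 and 0.28. Paralogs 1-4 gave 0.10, 0.06, 0.20 and 0.19, paralogs 5-8 gave 0.55, 0.41, 0.76 and 0.46, and paralogs 9-13 gave 0.03, 0.00, 0.41 and 0.26.

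**Figure D5:**
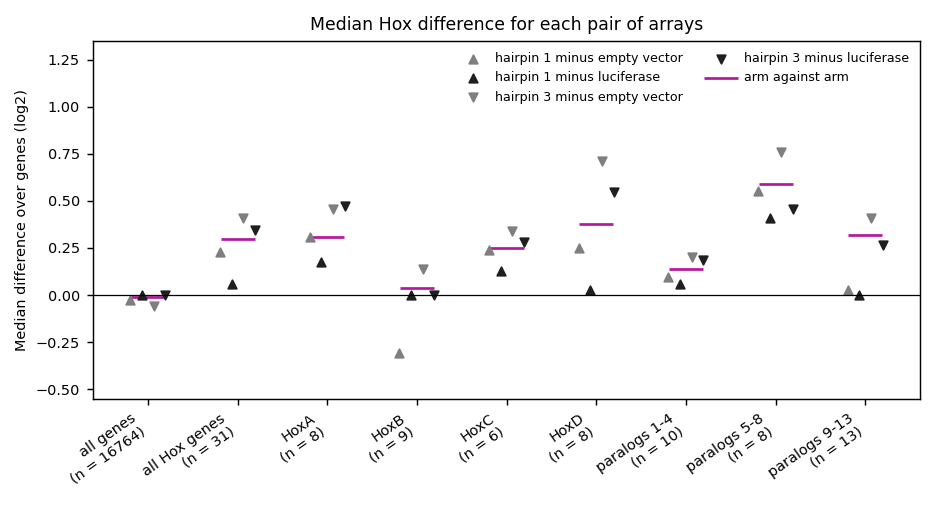
Median log2 difference over the tested genes of each Hox group and of all genes, for each hairpin against each control array (points) and for arm against arm (bars), with n the number of genes tested. Hairpin 3 against the empty vector gives the highest median in HoxD, 0.71, and the medians of all genes lie between -0.06 and 0.00.

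Summed over the 31 tested genes, the Hox level was 122.4 units with the empty vector, 121.7 with luciferase, 144.4 with hairpin 1 and 154.1 with hairpin 3. Both hairpin sums lay above both control sums, which were nearly equal. The sums over all 16764 genes had the same order of arms, at 1970726, 1967473, 2087322 and 2031626 units. HoxA summed to 25.6, 27.0, 33.4 and 38.1 units, HoxB to 36.2, 40.4, 41.3 and 45.7, and HoxD to 18.8, 17.9, 24.1 and 28.1, each with separate arms. HoxC summed to 41.9, 36.4, 45.7 and 42.2, with hairpin 3 just above the empty vector. Brighter probes weigh more in these sums.

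The differences between the arms were set beside those within them. Between the arms the difference is one of means, and within an arm it is one of single arrays. Means vary less than single arrays, so these sizes cannot show whether the arms differ by more than the noise. The median size of the difference, either way, was 0.32 log2 units between the arms, 0.34 between the control arrays and 0.22 between the hairpins over the Hox genes. Over all genes these were 0.26, 0.34 and 0.32. The Hox genes thus had the larger median between the arms, a like one between the control arrays and a smaller one between the hairpins. Whether these medians differ from those of all genes was not tested. In 7 Hox genes (22.6%) the difference between the arms was larger than both differences within them, near the 21.0% of all genes: Hoxa3, Hoxa7, Hoxa10, Hoxb6, Hoxb7, Hoxc13 and Hoxd8. By this measure the Hox genes were not set apart from other genes. No Hox gene differed by 1 log2 unit or more between hairpin 3 and hairpin 1, against 7.60% of all genes. Hoxb2 (-0.99) and Hoxd3 (0.99) fell just short, each with 1 hairpin reading raised to the floor, which limits such gaps in dim genes. Only Hoxc6 differed by 1 log2 unit or more between luciferase and the empty vector, at 1.13 and at the defective position, against 9.65% of all genes.

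Most Hox genes rest on 1 probe: 26 of the 37 have a single feature. Of the 6 genes with more than 1 tested feature, Hoxa3, Hoxb6, Hoxb9 and Hoxd9 took the same sign in each, and Hoxa4 and Hoxd3 did not. In Hoxa3, Hoxb6 and Hoxd9 only the brightest feature had separate arms, and the dimmer tested feature overlapped. In Hoxa4 and Hoxb9 only the dimmer feature was separate, higher in Hoxa4 and lower in Hoxb9. The count of separate genes therefore depends on taking the brightest feature.

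Genes that set Hox expression were read from lists chosen with earlier results known, and no member of any list passed the test. Of all genes tested, 49.2% read higher and 50.8% lower, and 15.1% had separate and higher and 18.3% separate and lower arms. The counts for each list here and below are a description to be read beside these shares. Among 26 Polycomb and Trithorax genes, the repressors and activators of Hox chromatin, 15 read higher and 11 lower (6 and 5 separate), with a median of 0.18. Besides PRC2 genes the list holds subunits of another Polycomb complex, PRC1: Ring1, Rnf2, Cbx2, Cbx7, Cbx8, Bmi1 and Pcgf2. Mtf2 itself is a member and counts as higher by its brightest feature (0.19, SE 0.71), although its other features read separate and lower. Jarid2, a PRC2 cofactor, read 402.0 and 558.8 units in the control arm and 951.4 and 753.5 in the Mtf2 RNAi arm, separate by 0.84 (SE 0.29). Another Jarid2 feature overlapped (0.15, SE 0.31). The core PRC2 subunit Suz12 read separate and lower by its brightest feature (-0.59, SE 0.24) and separate and higher by a dimmer one (0.25, SE 0.24). Eed, another core subunit, read 665.5 units with the empty vector and 358.6, 314.5 and 289.4 on the other arrays, so its -0.70 (SE 0.35) follows the empty vector. Its dimmer features overlapped, at -0.25 (SE 0.47) and -0.22 (SE 0.23).

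Among 16 tested genes for upstream signals and activators, 7 read higher and 9 lower, and the median was -0.08. Arms were separate in 1 and 5 of them, against 15.1% and 18.3% of all genes. Rarg, a retinoic acid receptor, read 18.0 and 21.5 units in the control arm and 9.54 and 11.7 in the Mtf2 RNAi arm (-0.90, SE 0.30), and its 3 dimmer features gave -0.31 to 0.12. Wnt3a, a caudal signal, read 3.25 and 2.19 units against 1.10 and 1.49 (-1.06, SE 0.34). Rara read 2.32 and 1.58 units against 0.636 and 1.21 (-0.80, SE 0.29), with hairpin 1 raised to the floor, so the size depends on it. The Cdx genes, direct activators of trunk Hox genes, read at or near the floor: Cdx1 and Cdx4 were at the floor on all arrays, and Cdx2 was above it with hairpin 1 alone, at 1.55 units.

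Of the 8 cofactor genes with a feature, whose proteins bind DNA together with Hox proteins, 5 read higher and 3 lower, with a median of 0.20. Pknox1, whose feature lies at a defective position, read higher by 0.46 (SE 0.23). Meis3 read 1.19 and 0.651 units in the control arm and 1.99 and 1.21 in the Mtf2 RNAi arm (0.51, SE 0.31). Its luciferase reading was raised to the floor, and hairpin 3 lay only just above the empty vector. Meis1 read 1.70, 1.08 and 1.74 units on the first 3 arrays and 182.6 with hairpin 3, so its difference of 3.72 (SE 2.13) rests on that array, and another Meis1 feature was at the floor throughout.

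Homeobox genes that flank the clusters or are their close relatives gave 8 higher and 1 lower of 9 tested, with a median of 0.19. Arms were separate in 2 and 1 of them, against 15.1% and 18.3% of all genes. Mnx1, a motor neuron factor, read 0.491 and 1.51 units in the control arm and 1.99 and 3.64 in the Mtf2 RNAi arm (1.13, SE 0.42). En2, a midbrain and cerebellum factor, read higher by 0.75 (SE 0.34) with separate arms by the brightest of its 10 features. Another En2 feature, at a defective position, gave 2.28 with overlapping arms. That value rests on 0.303 units with the empty vector against 21.1 to 26.0 on the other arrays. The remaining En2 features gave 0.013 to 0.99. Gsx1 read higher by 1.84 (SE 1.20), which rests on 1.05 units with the empty vector against 13.1 to 14 units on the other arrays. Evx2, beside Hoxd13, read 15.1 units with the empty vector and 7.41, 7.38 and 6.26 on the others, so its -0.64 (SE 0.45) follows the empty vector. Evx1, beside Hoxa13, lay at the floor except with hairpin 1 (0.08, SE 0.18).

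The non-homeobox neighbours of the clusters gave 12 of 25 higher and 13 lower, with a median of -0.08. Arms were separate in 5 and 4 of them, near the 15.1% and 18.3% of all genes. Calcoco2, beside HoxB, read higher by 0.72 (SE 0.27), whereas Snx10 near HoxA (-0.41, SE 0.23) and Mtx2 near HoxD (-0.56, SE 0.32) read separate and lower. The dimmer Mtx2 features gave -0.19 and 0.30. Of 4 antisense transcripts with a feature, Hottip, Hoxaas2 and Hoxd3os1 were at the floor on all arrays, and Hoxaas3 was above it only with hairpin 1, at 1.68 units. Whether the lists differ from the Hox genes was not tested.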

How the data were processed

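Expression was measured in 4 cultures with Cy3-labelled 1-colour arrays, per the labels' protocols. The deposited values are each feature's intensity on a linear scale. No source used here names the scanner, the background method or the normalization. Some values (2260 to 2879 an array) were at or below 0, which shows that a background had been subtracted. Array medians were 2.92 to 3.22 units.

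Arrays were set to 1 shared 75th percentile, readings under 1 unit were set to 1, and values were put on the log2 scale. The 10118 features at that floor on all 4 arrays were left out. The other 35102 were fitted with limma 3.58.1 (lmFit, eBayes with a trend on intensity) under R 4.3.3, adjusted by Benjamini-Hochberg over all of them, with a threshold of 0.05. The procedure was also run on simulated data without a floor, in which only features above the common 75th percentile were changed. No Hox feature reached that level, so the run does not show how the test behaves for Hox genes. For arrays, their number (2 an arm) limits the precision. A gene is its brightest feature, and gene symbols came from the 2016 platform annotation (33653 of 45220 with 1 symbol, 56 with several, 11511 not listed). Symbols were checked against RefSeq genes of GRCm38.p6, where 33517 features matched and 0 symbols differed. Separate arms means that both Mtf2 RNAi arrays lay above, or below, both control arrays. Feature numbers were read as 532 rows of 85, and positions count as defective where the 7 by 7 square around them deviated by a median of over 0.5 log2.

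The members and lists were chosen with earlier results of these data known. Named genes were Mtf2, Hox genes with separate arms, an unadjusted p under 0.05, the brightest of a cluster, features of opposite sign over 0.5 log2 apart, a difference of 1 log2 unit within an arm above the median level, or the floor on all arrays, and up to 3 genes of each list with the smallest p, with Cdx2, Evx1 and Evx2. The remaining Hox genes were added to account for each cluster. Alternatives changed the scaling, the floor, the filter, the variance model, the feature taken for a gene, the defective positions and the arrays used. Protein sequences were not used here.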

Additional observations from a re-analysis of the deposited data

How the results depend on the processing

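No Hox feature passed the threshold under any of the 17 alternatives. With all 4 arrays in use, the smallest adjusted p of a Hox gene was 0.435, for Hoxc13 in the unmoderated fit. Over all features the limma fit called 0, and 36 with no filter on dim features and 22 with an unmoderated fit. Separate and higher arms numbered 6 with a floor of 4 units and 7 among features above the median level, against 11, and separate and lower arms 0 in both, against 2. With 1 array left out these counts ran from 13 to 20 and from 3 to 6. Fewer arrays separate more easily, and the shares of all genes in those fits were not computed.

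The medians of HoxB, HoxC and paralogs 1-4 were 0.13, 0.027 and -0.0074 with a floor of 0.5 units, 0.61, 0.12 and 0.30 with a floor of 4 units, and 0.61, 0.12 and 0.31 among features above the median level. Paralogs 9-13 gave 0.15 with the floor of 4 units, at which 12 Hox genes were left. With 16 units added in place of a floor, which compresses low values, the medians were 0.039 for all Hox genes, 0.049 for HoxA, 0.048 for HoxC, 0.077 for HoxD, 0.013 for paralogs 1-4, 0.083 for paralogs 5-8 and 0.047 for paralogs 9-13. With no filter they were 0.13 for all Hox genes, 0.061 for HoxC and 0.13 for paralogs 5-8, and HoxC gave 0.12 without defective positions. With 1 array left out, medians ran from 0.20 to 0.38 for all Hox genes, 0.24 to 0.48 for HoxA, -0.22 to 0.084 for HoxB, 0.085 to 0.33 for HoxC and 0.089 to 0.67 for HoxD. They ran from -0.025 to 0.25 for paralogs 1-4, 0.37 to 0.71 for paralogs 5-8 and 0.18 to 0.42 for paralogs 9-13.

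Of 31 Hox genes, 20 never took the opposite sign, and 11 did under at least 1 alternative (26 of 488 values, 16 of them with an array left out). The 488 values include those with another variance model, filter or set of positions, where a gene's difference stays as it was and could not flip. Hoxa11, Hoxb8, Hoxd4, Hoxb1 and Hoxc12 were above the floor in 1 arm only, so leaving out an array could not flip them. The 20 are therefore no measure of stability. Other choices gave Hoxa4 0.013 and Hoxd10 0.0064 with no scaling, Hoxb2 -0.0089 on a common median, Hoxd10 0.0016 after quantile normalization, Hoxb2 -0.035 and Hoxd3 -0.094 with a floor of 0.5 units, Hoxa4 0.00071 and Hoxd3 -0.013 with 16 units added, and Hoxa4 0.26 and Hoxd3 -0.047 as the mean of all features. With 1 array left out, differences ran from -0.011 to 0.27 for Hoxa6, -0.078 to 0.57 for Hoxa13, -0.46 to 0.53 for Hoxb2, -0.39 to 0.084 for Hoxb4, -0.52 to 0.39 for Hoxc5, -0.15 to 0.089 for Hoxd10, -0.85 to 1.23 for the brightest Mtf2 feature, -0.24 to 0.22 for Hoxa4, -0.24 to 0.38 for Hoxb3, -0.29 to 0.70 for Hoxd3, -0.068 to 0.31 for Hoxc9 and -0.050 to 0.68 for Hoxd1. The cause of these shifts was not tested. No paired analysis was possible because the hairpin numbers 1 and 3 name constructs and the control labels carry no number to pair them by. Most Hox features lie near the floor, where the signal over background limits what a difference can show.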
